A study of Mus musculus with 7 samples.

Results

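The mouse genes whose symbol is Zfp followed by a number were followed across Adnp genotypes in whole embryos on embryonic day 9. The members were chosen by their annotation and their level: probe sets whose platform annotation gives a single symbol of that form were taken, the probe set of highest mean signal over the 7 arrays stood for each gene, and genes with a mean signal of at least 35 were kept. This left 112 genes of the 173 Zfp genes with such a probe set on the array, beside 8075 genes of all kinds past the same level of 12393 symbols. The 112 include 10 whose number is followed by letters, such as Zfp36l1 and Zfp385a. The level came from the mean over all 7 arrays without regard to genotype, so the rule itself uses no genotype difference, but 9 of the 112 had a mean under 35 in at least 1 genotype, Zfp316 among them. Just inside the level lay Zfp87 with a mean signal of 40.6, Zfp672 with 40.5, Zfp944 with 40.2, Zfp930 with 36.6 and Zfp53 with 36.1. Just outside lay Zfp654 with 34.99, Zfp467 with 34.9, Zfp758 with 34.4, Zfp36 with 33.2 and Zfp60 with 33.2.

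Total RNA was read on Affymetrix Murine Genome 430A arrays from 2 wild-type pools (Adnp +/+), 3 heterozygous pools (Adnp +/-) and 2 knockout pools (Adnp -/-). Each pool joined 2 littermates of the same genotype. All were described as C57BL/6 embryos of mixed sex, freed of yolk sac and amnion, at the stage when knockout embryos are already abnormal in form and not yet resorbed. Y-linked signal, given below, was low in the wild-type pools, so mixed sex is not shown for them. The pools hold separate embryos, but their litters are not stated in the sources used here.

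Most numbered Zfp genes encode nuclear proteins with repeated C2H2 zinc fingers, each finger gripping a zinc ion and reading a few bases of DNA. Many also carry a KRAB domain, which recruits the co-repressor Trim28 and with it the histone methyltransferase Setdb1, and these silence retroelements and guard parental imprints in the early embryo. The name covers unrelated proteins too, among them factors that bind messenger RNA or ribosomes. ADNP is itself a zinc finger protein and joins the remodeller Chd4 and HP1 proteins in a chromatin complex.

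The arrays were on a common scale, with a trimmed mean of 150 to 150.1 and median signals of 55.5 to 57.4. Pearson correlations between arrays ran from 0.918 to 0.981 across all genes tested and from 0.859 to 0.964 across the Zfp genes, which are not independent points. Adnp had no probe set of a single symbol, so the targeted transcript was not used to check the genotype labels. Heart, somite, neural and erythroid markers were measured in all pools. In either knockout comparison 0 of 7 erythroid markers were called, beside 3.41% and 5.94% of all genes. Of 4 trophoblast and decidua markers measured 0 were called in any comparison. Their sums were 292 to 357 in wild type, 270 to 1104 in heterozygous and 403 to 538 in knockout pools. Among them Prl8a2 had a heterozygous mean of 298 ± 460 (SD, n = 3), and the part of such tissue in the heterozygous comparisons was not tested. Visceral endoderm markers differed by genotype: 15 of 21 rose in knockout against wild type and 0 fell, with a summed signal of 1402 to 3927 in wild type, 1425 to 2776 in heterozygous and 13552 to 16026 in knockout pools. Among those that rose, Apoa4, Apob and Pla2g12b reached the level of 35 only through the knockout pools. Their means were 14.75, 34.65 and 32.35 in wild type and 6.13, 25.7 and 27.1 in heterozygous pools. Of the neural markers 10 of 18 fell, from sums of 2587 to 3483 in wild type and 2674 to 3094 in heterozygous pools to 1677 to 1680 in knockout pools, and 3 of 8 somite markers fell, from 1311 to 1414 and 1202 to 1260 to 698 to 761. Of 14 heart markers 2 fell against wild type, the ventricular myosin light chain Myl2 and the atrial peptide Nppa, and 4 fell against heterozygous pools, with sums of 5934 to 7517 in wild type, 6174 to 7204 in heterozygous and 5040 to 6235 in knockout pools. In these whole-embryo pools, fewer cells of a type and less RNA per cell cannot be told apart, and the part of tissue makeup in the Zfp values below was not tested. The pools also differed in Y-linked signal. The 2 Y-linked genes measured summed to 21.1 to 32.1 in wild type, 75.9 to 143.2 in heterozygous and 104 to 148 in knockout pools. The part of embryo sex in any difference from wild type was not tested.

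Loss of Adnp was accompanied by few changes among the Zfp genes. Against wild type, 3 of the 112 fell in knockout pools, Zfp61, Zfp316 and Zfp423, and 1 rose, Zfp991, by limma with Benjamini-Hochberg adjustment over all 8075 genes and a threshold of 0.05. These 4 are 3.57% of the Zfp genes, where 3.41% of all genes tested were called. By direction, 2.68% of the Zfp genes fell beside 1.37% of all genes, and 0.893% rose beside 2.03%. Against heterozygous pools 5 fell, Zfp61, Zfp362, Zfp410, Zfp423 and Zfp746, which is 4.46% beside 5.94% of all genes called. For this comparison 2.72% of all genes fell and 3.22% rose, and none of the Zfp genes rose. Both comparisons share the knockout arrays. The moderated F test over the 3 genotypes called 5 Zfp genes, 4.46% beside 3.49% of all genes. The shares called in any direction lie near the background, and those by direction rest on counts of 5 or fewer. The share of all genes called also depended on the pools: without heterozygous pool 2 it was 6.77% against heterozygous pools. The counts rest on single pools: leaving out wild-type pool 2 or knockout pool 2 left 0 calls against wild type, and leaving out heterozygous pool 2 left 2. Against heterozygous pools, 0 calls were left without knockout pool 2, 1 without knockout pool 1, and 8 were made without heterozygous pool 2.

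**Figure D1:**
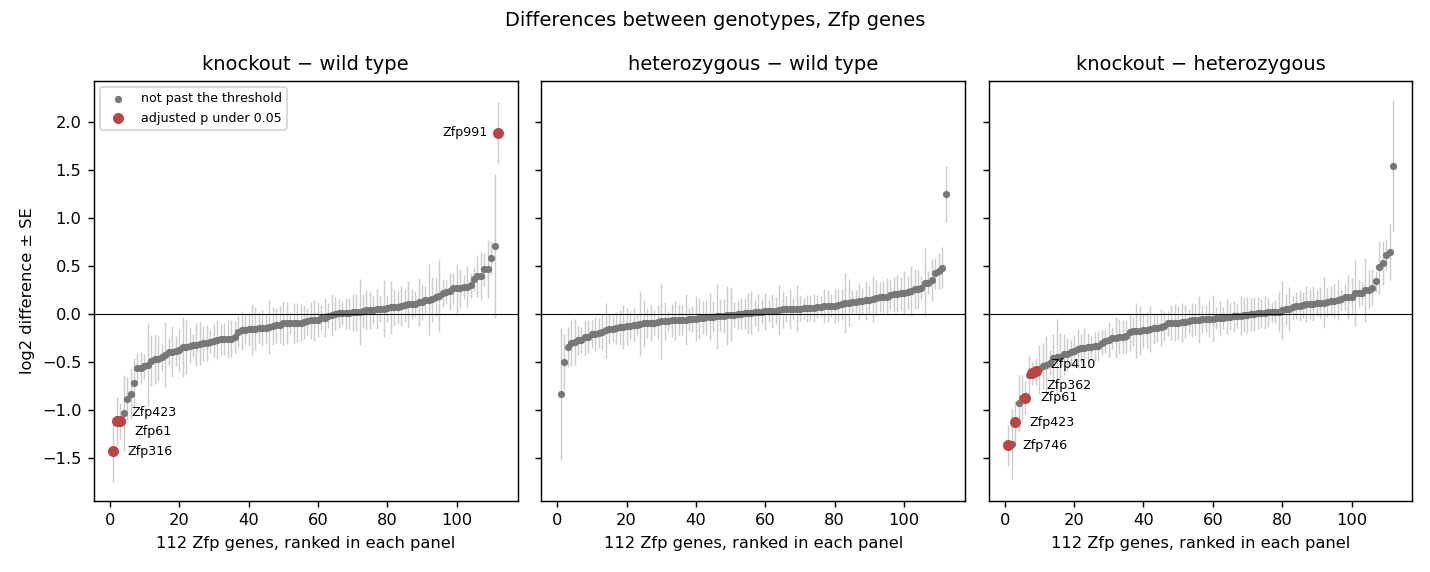
Log2 differences between genotypes for the 112 Zfp genes, ranked from lowest to highest within each comparison, with bars of 1 standard error; red points passed an adjusted p of 0.05. Knockout against wild type shows 3 red points on the left and Zfp991 alone on the right, the heterozygous comparison shows no red point, and knockout against heterozygous shows 5 red points, all below 0.

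Zfp61 gave 85.2 and 92.7 in wild type, 76.3, 77.3 and 70.3 in heterozygous, and 40.0 and 37.9 in knockout pools. The genotypes did not overlap, and the heterozygous pools lay between the others. The knockout mean of 38.95 ± 1.48 (SD, n = 2) was 2.17-fold lower than the wild-type mean of 88.95 ± 5.3 (n = 2) on the log2(signal + 3.8) scale used for all folds (log2 difference -1.12, SE 0.19, limma adjusted p = 0.0135). It was 1.83-fold lower than the heterozygous mean of 74.6 ± 3.79 (n = 3; log2 difference -0.87, SE 0.17, adjusted p = 0.0184). The heterozygous difference from wild type of -0.24 did not pass (adjusted p = 0.999). The call against wild type was lost without wild-type pool 2 (adjusted p = 0.127), knockout pool 1 (0.0712) or knockout pool 2 (0.0977), and that against heterozygous pools without knockout pool 1 (0.0969) or 2 (0.129).

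Zfp423 encodes a protein of many zinc fingers that binds EBF and SMAD factors and is needed for the cerebellar midline and for fat cell commitment. Its signals were 213.6 and 313.2 in wild type, 353.2, 233.7 and 214.6 in heterozygous, and 127.1 and 107.9 in knockout pools. Both knockout pools lay below all others, while wild-type and heterozygous pools overlapped, with means of 263.4 ± 70.4 (SD, n = 2) and 267.2 ± 75.1 (n = 3) against 117.5 ± 13.6 (n = 2). The gene fell 2.17-fold against wild type (log2 difference -1.12, SE 0.25, limma adjusted p = 0.0393) and 2.19-fold against heterozygous pools (-1.13, SE 0.23, adjusted p = 0.0199). The sums of neural and somite markers were likewise lowest in both knockout pools, and their part in the Zfp423 values was not tested. Leaving out wild-type pool 2 gave an adjusted p of 0.290 against wild type, heterozygous pool 2 gave 0.0518, knockout pool 1 gave 0.136 and knockout pool 2 gave 0.225. Against heterozygous pools it was 0.0957 without knockout pool 1 and 0.167 without knockout pool 2. With no intensity trend in the fit both calls were lost (0.0900 and 0.0586), and with no brightness filter that against wild type was lost (0.0753).

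Zfp316 gave 89.0 and 72.2 in wild type, 57.7, 47.1 and 63.2 in heterozygous, and 39.5 and 18.6 in knockout pools. The 3 genotypes did not overlap, and the knockout pools differed from each other more than 2-fold. The mean was 80.6 ± 11.9 (SD, n = 2) in wild type, 56.0 ± 8.18 (n = 3) in heterozygous and 29.05 ± 14.8 (n = 2) in knockout pools, the last under the level of 35. Knockout was 2.7-fold lower than wild type (log2 difference -1.43, SE 0.32, limma adjusted p = 0.0402), while the difference of -0.93 from heterozygous pools did not pass (adjusted p = 0.0882). The call was lost with any of 5 pools left out: the adjusted p was 0.152 and 0.168 without wild-type pool 1 or 2, 0.0518 and 0.0707 without heterozygous pool 2 or 3, and 0.203 without knockout pool 2. It was also lost with no intensity trend (0.0636), with no brightness filter (0.0858) and with only the groups compared in the fit (0.0690).

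Zfp746, also known as PARIS, is a KRAB zinc finger repressor of Ppargc1a and a substrate of the ubiquitin ligase parkin. It stood highest in heterozygous pools, with signals of 79.7 and 88.1 in wild type, 127.9, 107.1 and 120.5 in heterozygous, and 56.1 and 33.5 in knockout pools. No genotypes overlapped. The heterozygous mean of 118.5 ± 10.5 (SD, n = 3) was 2.58-fold above the knockout mean of 44.8 ± 16.0 (n = 2; log2 difference of knockout from heterozygous -1.37, SE 0.21, limma adjusted p = 0.00704), which was lost without knockout pool 2 (adjusted p = 0.0664). Against the wild-type mean of 83.9 ± 5.94 (n = 2), the knockout difference of -0.89 had an adjusted p of 0.0695 and the heterozygous difference of 0.48 one of 0.999, and neither passed. The knockout difference from wild type passed without knockout pool 1 (0.0459) and with array weights (0.0442).

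Zfp362 was the brightest of the called genes, with signals of 385.5 and 466.8 in wild type, 479.7, 421.3 and 440.2 in heterozygous, and 292.1 and 285.9 in knockout pools. Both knockout pools lay below the other 5, and the remaining groups overlapped. Its knockout mean of 289 ± 4.38 (SD, n = 2) was 1.54-fold below the heterozygous mean of 447.1 ± 29.8 (n = 3; log2 difference -0.62, SE 0.12, limma adjusted p = 0.0173). Against the wild-type mean of 426.1 ± 57.5 (n = 2) the log2 difference was -0.55 (SE 0.13, adjusted p = 0.0522). The heterozygous comparison was lost without knockout pool 1 (0.112) or 2 (0.140) and with no intensity trend (0.0536).

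Zfp410 encodes an activator whose main target in mammalian cells is Chd4, a partner of ADNP. Its brighter probe set gave 185.5 and 230.7 in wild type, 225.3, 200.1 and 210.0 in heterozygous, and 128.1 and 149.4 in knockout pools, with both knockout pools below the other 5. The difference from heterozygous pools was -0.60 (SE 0.14, limma adjusted p = 0.0384), a 1.51-fold fall, and that from wild type was -0.57 (adjusted p = 0.0789). A second probe set of Zfp410 gave 95.1 and 123.6, then 109.0, 93.8 and 101.3, then 110.9 and 116.6, with overlapping groups and a knockout difference from heterozygous pools of 0.16 (adjusted p = 0.603 in a fit of 13686 probe sets). In that fit the brighter probe set did not pass either (adjusted p = 0.0513). Averaged over its probe sets, Zfp410 was no longer called (-0.22, adjusted p = 0.383). The call was also lost without heterozygous pool 1 (0.0835) or 3 (0.0864), without knockout pool 1 (0.244) or 2 (0.126), with no intensity trend (0.0723) and with no brightness filter (0.0604). Chd4 itself had means of 540.9 ± 138 (SD, n = 2) in wild type, 451.7 ± 118 (n = 3) in heterozygous and 545.3 ± 64.8 (n = 2) in knockout pools, with a knockout difference from wild type of 0.03 (adjusted p = 0.967) and from heterozygous pools of 0.30 (0.449).

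Zfp991 was the one Zfp gene that rose. Its brighter probe set gave 65.2 and 73.3 in wild type, 213.2, 119.3 and 189.9 in heterozygous, and 188.3 and 374.3 in knockout pools, so the wild-type pools stood below all others while heterozygous and knockout pools overlapped. The knockout mean of 281.3 ± 132 (SD, n = 2) was 3.7-fold above the wild-type mean of 69.25 ± 5.73 (n = 2; log2 difference 1.89, SE 0.32, limma adjusted p = 0.0142). The heterozygous mean of 174.1 ± 48.9 (n = 3) lay 1.25 above wild type on the log2 scale with an unadjusted p of 0.0017, which did not pass adjustment (0.999). The difference of knockout from heterozygous pools was 0.64 (adjusted p = 0.23). The call was lost without wild-type pool 1 (0.0507) or 2 (0.0853) or knockout pool 2 (0.109).

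A second probe set of Zfp991 drew another order. It gave 83.4 and 80.5 in wild type, 79.7, 79.8 and 84.6 in heterozygous, and 118.0 and 119.6 in knockout pools, so that the knockout pools stood apart and the other genotypes overlapped. Its differences did not pass in the fit of 13686 probe sets (knockout from wild type 0.52, adjusted p = 0.128; from heterozygous 0.53, adjusted p = 0.0733). In the gene table Zfp991 lies among other Zfp genes, with Zfp978 and Zfp988 on either side, and signal from close copies could not be told apart, so both patterns are uncertain as to gene. Zfp982, 2 places away, was the only Zfp gene within 4 places with a probe set of a single symbol. Below the level with a mean signal of 26.3, it gave 20.9 and 11.6 in wild type, 8.8, 23.3 and 9.0 in heterozygous, and 60.2 and 50.6 in knockout pools. Its knockout pools were highest, as on the second Zfp991 probe set. Zfp982 was not called when genes of all levels were tested. The Y-linked gene Kdm5d, like the brighter Zfp991 probe set, was lowest in wild type. Its means were 7.15 ± 4.03 (SD, n = 2), 62.4 ± 24.3 (n = 3) and 79.1 ± 33.7 (n = 2). Its wild-type signal is near the floor of the array, so no size of difference is given. The summed signal of the 2 Y-linked genes measured, of 4 listed, was 21.1 to 32.1 in wild type, 75.9 to 143.2 in heterozygous and 104 to 148 in knockout pools. Both this sum and the brighter Zfp991 probe set were lowest in the wild-type pools, and the part of Y-linked signal in the result was not tested.

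**Figure D2:**
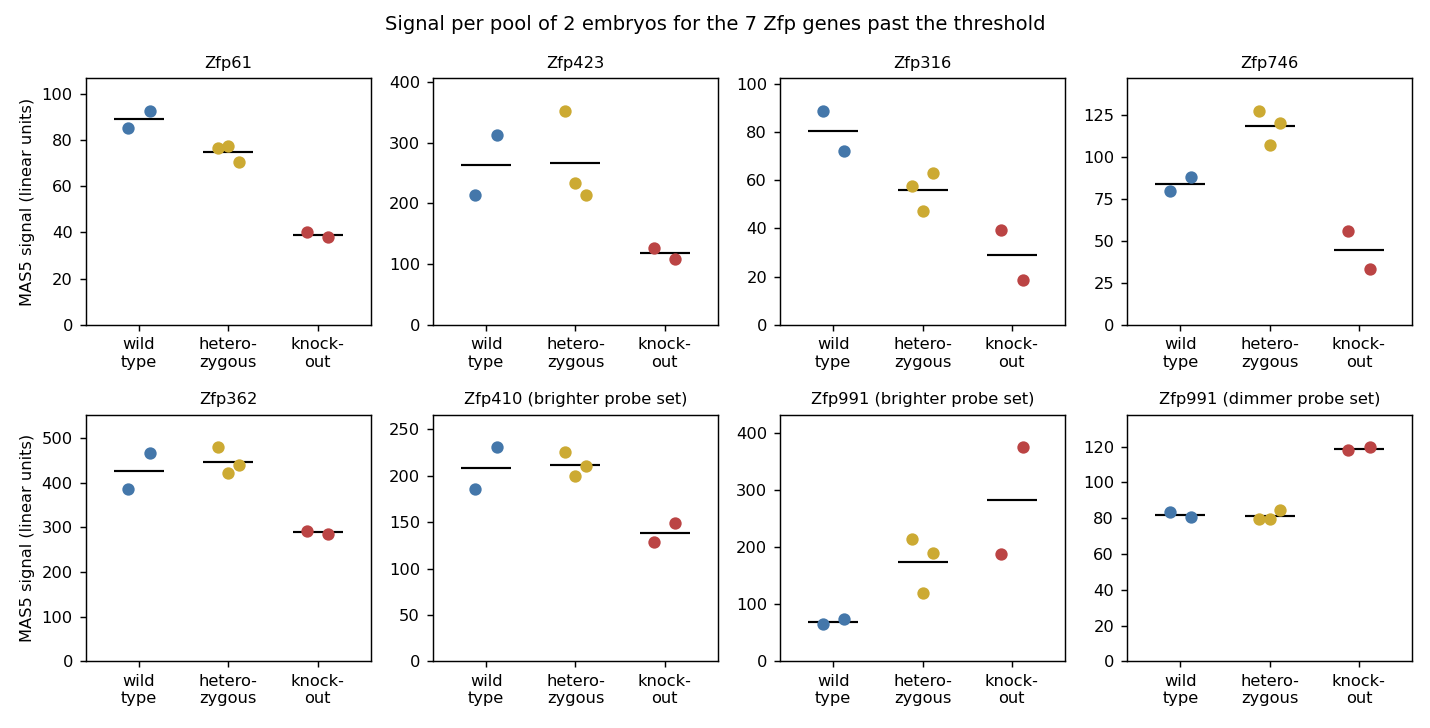
MAS5 signal in each pool (points) and genotype mean (lines) on linear axes from 0 for the 7 Zfp genes past the threshold in any comparison, with both probe sets of Zfp991. Knockout points lie below all others for Zfp61, Zfp423, Zfp316, Zfp746, Zfp362 and Zfp410, Zfp746 peaks in heterozygous pools, and the 2 probe sets of Zfp991 differ in where the heterozygous pools lie.

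Promoter stretches from RefSeq (GRCm38.p6) were looked up for the called genes, to show whether genes that fell together share simple promoter features. Of the 7 called genes 4 had an entry, and the 250 bases before each start are printed 5′ to 3′ along the gene's strand, all on the minus strand, with capitals for the GC box GGGCGG searched on both strands.
Zfp61, chr7:24299550-24299799: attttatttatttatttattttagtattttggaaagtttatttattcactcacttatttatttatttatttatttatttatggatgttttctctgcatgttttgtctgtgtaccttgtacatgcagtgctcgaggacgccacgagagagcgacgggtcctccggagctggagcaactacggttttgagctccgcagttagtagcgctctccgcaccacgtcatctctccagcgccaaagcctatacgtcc
Zfp423 upstream start, chr8:87959596-87959845: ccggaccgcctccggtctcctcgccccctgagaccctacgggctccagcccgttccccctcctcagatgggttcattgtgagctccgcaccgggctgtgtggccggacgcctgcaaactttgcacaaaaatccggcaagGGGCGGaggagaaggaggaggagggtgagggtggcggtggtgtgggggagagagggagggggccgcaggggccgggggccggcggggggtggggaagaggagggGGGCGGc
Zfp423 downstream start, chr8:87804440-87804689: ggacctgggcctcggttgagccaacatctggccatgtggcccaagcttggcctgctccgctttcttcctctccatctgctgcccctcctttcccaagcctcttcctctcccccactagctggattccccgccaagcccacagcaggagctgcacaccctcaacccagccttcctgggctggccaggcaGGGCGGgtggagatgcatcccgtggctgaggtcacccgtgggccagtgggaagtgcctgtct
Zfp316, chr5:143270023-143270272: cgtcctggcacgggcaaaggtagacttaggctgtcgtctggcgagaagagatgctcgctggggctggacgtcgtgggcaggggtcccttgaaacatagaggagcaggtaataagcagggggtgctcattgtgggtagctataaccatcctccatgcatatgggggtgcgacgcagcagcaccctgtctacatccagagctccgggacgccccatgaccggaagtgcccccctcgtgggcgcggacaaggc
Zfp746, chr6:48086594-48086843: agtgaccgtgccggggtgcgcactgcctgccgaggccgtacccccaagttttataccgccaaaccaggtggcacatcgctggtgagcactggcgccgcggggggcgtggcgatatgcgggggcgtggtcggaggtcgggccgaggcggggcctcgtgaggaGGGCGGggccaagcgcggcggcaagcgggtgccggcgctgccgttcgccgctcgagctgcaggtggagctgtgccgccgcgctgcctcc
These stretches differ widely in base content, from 41.2% G and C in Zfp61 to 74.0% in Zfp746. The upstream start of Zfp423 held 2 GC boxes, its downstream start and Zfp746 1 each, and Zfp61 and Zfp316 held 0. No single feature searched was common to all of them.

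Over windows of 300 bases, the promoters of the Zfp genes as a class were rich in CpG. The table held 109 promoters of 90 of the 112 genes, with a median of 18 CpG per window and 58.3% G and C, where all 32851 promoters of 27025 genes had medians of 7 and 52.7%. The median ratio of observed to expected CpG was 0.751 beside 0.384. A GC box (GGGCGG) stood in 61.5% of the Zfp promoters and 35.7% of all promoters, CCAAT in 48.6% and 37.4%, and TATAAA in 9.17% and 13.6%, each searched on both strands. All promoters include those of genes below the level on these arrays, so the comparison is a description.

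No Zfp gene passed the threshold between heterozygous and wild-type pools, where 0% of all genes were called, and all adjusted p-values of the Zfp genes there were 0.999. At an unadjusted p under 0.05 there were 5 Zfp genes, Zfp276, Zfp622, Zfp64, Zfp746 and Zfp991, which is 4.46% beside 3.54% of all genes. Their log2 differences were 0.45 for Zfp276, 0.32 for Zfp622, 0.42 for Zfp64, 0.48 for Zfp746 and 1.25 for Zfp991. Second probe sets of Zfp276, Zfp622, Zfp64 and Zfp991 gave values below 0, at -0.28, -0.09, -0.07 and -0.01. Zfp787, with separate groups but not among these 5, stood at 0.35, and its second probe set gave -0.04. On that second probe set both knockout pools, at 27.5 and 31.4, lay below all others. Its knockout differences there of -0.83 from wild type and -0.79 from heterozygous pools did not pass. Among values below 0 with separate groups, Zfp316 stood at -0.50, Zfp524 at -0.34, Zfp148 and Zfp574 at -0.28 and Zfp61 at -0.24. Further probe sets of Zfp574 gave 0.10 and 0.11, and those of Zfp148 -0.16 and 0.12. At the same unadjusted level 17.9% of the Zfp genes (20) differed between knockout and wild type beside 19.1% of all genes, and 22.3% (25) between knockout and heterozygous pools beside 22.8%.

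Below the called genes lay a set of small differences, more of them negative than positive. The median log2 difference of the Zfp genes from wild type was -0.08 in knockout (quartiles -0.29 and 0.08) and 0.01 in heterozygous pools, where all genes tested had -0.01 and 0.01. In knockout 64 of the 112 (57.1%) lay below 0, as did 52.1% of all genes. Against heterozygous pools the median was -0.06 with 72 (64.3%) below 0, beside -0.02 and 52.9%. Both knockout arrays lay below the other 5 for 22 Zfp genes (19.6%), where 16.5% of all genes did so, and above them for 6 (5.36%), where 14.4% did. A log2 difference of 1 or more from wild type in either direction was reached by 5 Zfp genes (4.46%) and by 3.16% of all genes.

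**Figure D3:**
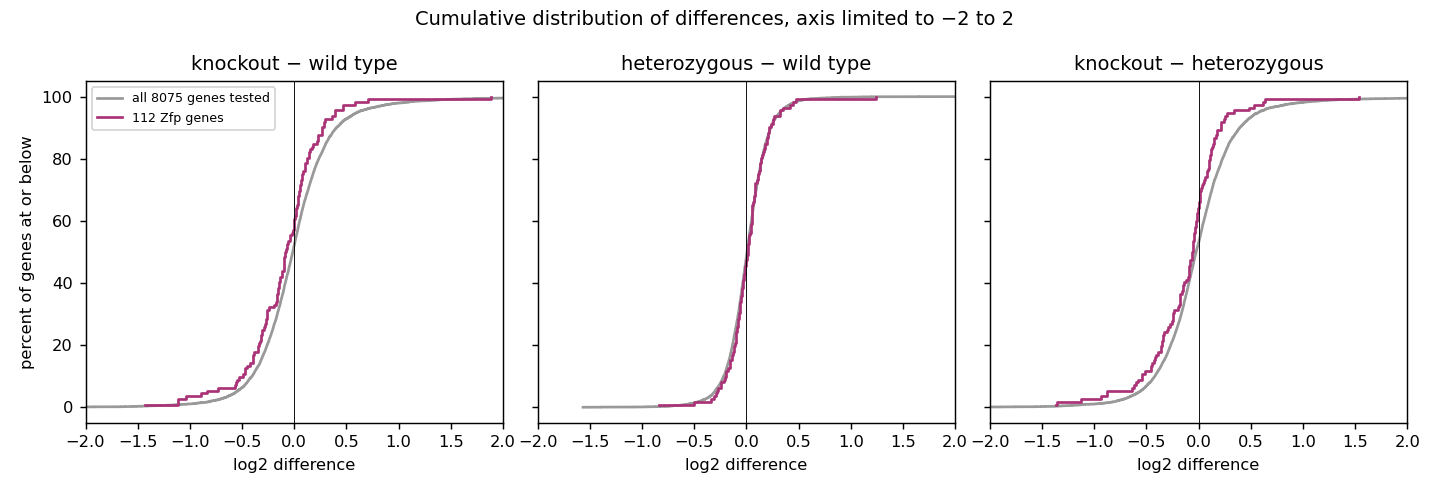
Cumulative share of genes by log2 difference for the 112 Zfp genes (purple) and all 8075 genes tested (grey) in the 3 comparisons, with the axis limited to -2 to 2. In both knockout comparisons the purple line lies to the left of the grey one over most of its course, with medians of -0.08 and -0.06 against -0.01 and -0.02, and the lines nearly coincide for heterozygous against wild type.

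Several Zfp genes had sizeable differences that did not pass. Zfp444 gave 65.9 and 66.8 in wild type, 120.0, 54.6 and 89.6 in heterozygous, and 19.6 and 46.3 in knockout pools, with knockout pools lowest and far apart (knockout from heterozygous -1.36, limma adjusted p = 0.0553). It passed without heterozygous pool 2 (0.0282) and with array weights (0.0408). Its second probe set gave 0.33 for the same difference. Zfp185, which encodes a LIM domain protein of the actin cytoskeleton, had 81.4 and 68.0 in wild type, 74.9, 69.4 and 74.2 in heterozygous, and 118.0 and 109.1 in knockout pools, with knockout pools highest. Its difference from heterozygous pools was 0.61 (adjusted p = 0.0517) and from wild type 0.58 (0.104), and the former passed with quantile normalization (0.0428), with no intensity trend (0.0479), with array weights (0.0373) and averaged over probe sets (0.0390). Zfp1 had the largest positive difference from heterozygous pools, 1.54 (adjusted p = 0.215), on signals of 61.5 and 26.7, then 4.3, 53.8 and 29.7, then 79.8 and 59.5, with 1 heterozygous pool near the floor of the array and the widest spread within genotypes of any Zfp gene. Zfp64 had a difference of 0.46 from wild type in knockout and 0.42 in heterozygous pools, where its second probe set gave -0.02 and -0.07. Others with separate groups were Zfp53 (0.47 from wild type, adjusted p = 0.445), Zfp937 (0.39 from wild type, 0.440; 0.53 from heterozygous, 0.202) and Zfp942 (0.25 from heterozygous, 0.514).

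Zfp genes whose products act on RNA were measured for 12 of the 13 listed, and 0 were called in any comparison, with a median difference of knockout from wild type of -0.03. Of all genes tested, 3.41% were called between knockout and wild type and 5.94% between knockout and heterozygous pools. Zfp36l1, which drives decay of AU-rich messages, had signals of 732.2 and 747.1 in wild type, 670.4, 796.5 and 841.6 in heterozygous, and 768.6 and 714.0 in knockout pools, with overlapping groups (difference 0.00, SE 0.13, limma adjusted p = 0.995). A second Zfp36l1 probe set differed, with 310.3 and 356.1 in wild type, 348.2, 244.4 and 431.2 in heterozygous, and 205.3 and 227.7 in knockout pools. There both knockout pools lay below the other 5, with differences of -0.61 from wild type and -0.61 from heterozygous pools that did not pass in the fit of 13686 probe sets (adjusted p = 0.198 and 0.125). Its relative Zfp36l2 also had a difference of 0.00 (SE 0.16). Zfp207, which binds Bub3 and spindle microtubules, stood at -0.26 (SE 0.19), Zfp622, a ribosome assembly factor, at 0.28 (SE 0.13), and Zfp106, an RNA-binding protein needed in motor neurons, at 0.22 (SE 0.12). Lower in both knockout pools than in all others, without passing, were Zfp346, which binds double-stranded RNA (-0.46 from wild type, adjusted p = 0.119; -0.51 from heterozygous, 0.0503), Zfp598, the ubiquitin ligase that senses collided ribosomes (-0.39, 0.170), Zfp326 (-0.31, 0.407) and Zfp385a, an RNA-binding protein of the p53 pathway (-0.73, 0.174; -0.88 from heterozygous, 0.0614). The last passed against heterozygous pools without heterozygous pool 2 (0.0224) and with array weights (0.0384). Zfp318 (0.14), Zfp638 (0.23) and Zfp830 (-0.07) completed the group. Probe sets disagreed in sign here too: further ones gave -0.25 for Zfp318, -0.21 for Zfp638, 0.09 for Zfp830, -0.05 for Zfp622, and -0.25 and 0.07 for Zfp106.

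Genes of pluripotency, imprint control and retroelement silencing were split by level at this stage. Of 10 on the array 5 reached the level and 0 of these were called, with a median of -0.15. Zfp445, which protects imprints alongside Zfp57, gave 281.6 and 270.4 in wild type, 309.4, 233.2 and 299.2 in heterozygous, and 205.7 and 213.6 in knockout pools. The knockout pools were lowest on this probe set, with differences of -0.39 from wild type (limma adjusted p = 0.202) and -0.40 from heterozygous pools (0.120). A second probe set gave 192.4 and 193.8, then 123.0, 173.2 and 178.2, then 163.4 and 162.5, with knockout and heterozygous pools overlapping and differences of -0.24 and 0.06. Zfp568, a KRAB repressor of Igf2, stood at 0.10, Zfp281, a regulator of the exit from pluripotency, at -0.10 (-0.29 on its second probe set), Zfp322a at -0.27 and Zfp932 at -0.15. The brighter Zfp281 probe set had the smallest spread within genotypes among the Zfp genes, an SD of 0.028 on the log2 scale. Zfp57, below the level with a mean signal of 28.7, gave 18.8 and 37.8 in wild type, 55.3, 41.9 and 32.5 in heterozygous, and 4.3 and 10.2 in knockout pools. When genes of all levels were tested, Zfp57 was called for knockout against heterozygous pools (adjusted p = 0.0328) and not against wild type (0.138). Its knockout signals are near the floor of the array, so the size of the difference depends on the added constant and is not given. The pluripotency marker Zfp42 was near that floor too, with a mean of 7.16.

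Genes of neural and craniofacial development were measured for 6 of the 6 on the array, and 1 of them, Zfp423, fell in both knockout comparisons. That is 16.7% of the group in each, beside 3.41% and 5.94% of all genes called, and it rests on 1 gene. The group's median difference from wild type was -0.26. Zfp521, a factor of early neural commitment, had 237.6 and 253.8 in wild type, 260.1, 257.0 and 248.5 in heterozygous, and 206.2 and 194.0 in knockout pools, lowest in knockout (-0.29 from wild type, limma adjusted p = 0.233; -0.35 from heterozygous, 0.0976). Zfp292 went the other way, with 233.3 and 224.4, then 231.4, 242.6 and 226.0, then 306.5 and 284.6, highest in both knockout pools (0.36 from wild type, 0.142; 0.34 from heterozygous, 0.106). Of its 3 further probe sets, 1 also had knockout highest (0.21 from wild type, 0.58 from heterozygous), and the others gave 0.17 and 0.22 from wild type and -0.00094 and -0.08 from heterozygous pools, which they overlapped. Differences from wild type were -0.26 for Zfp148, -0.26 for Zfp703 and 0.12 for Zfp503, a striatal factor also known as Nolz1. On these probe sets the knockout pools were separate from the wild-type pools in all 3 and overlapped with the heterozygous pools, and none passed.

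**Figure D4:**
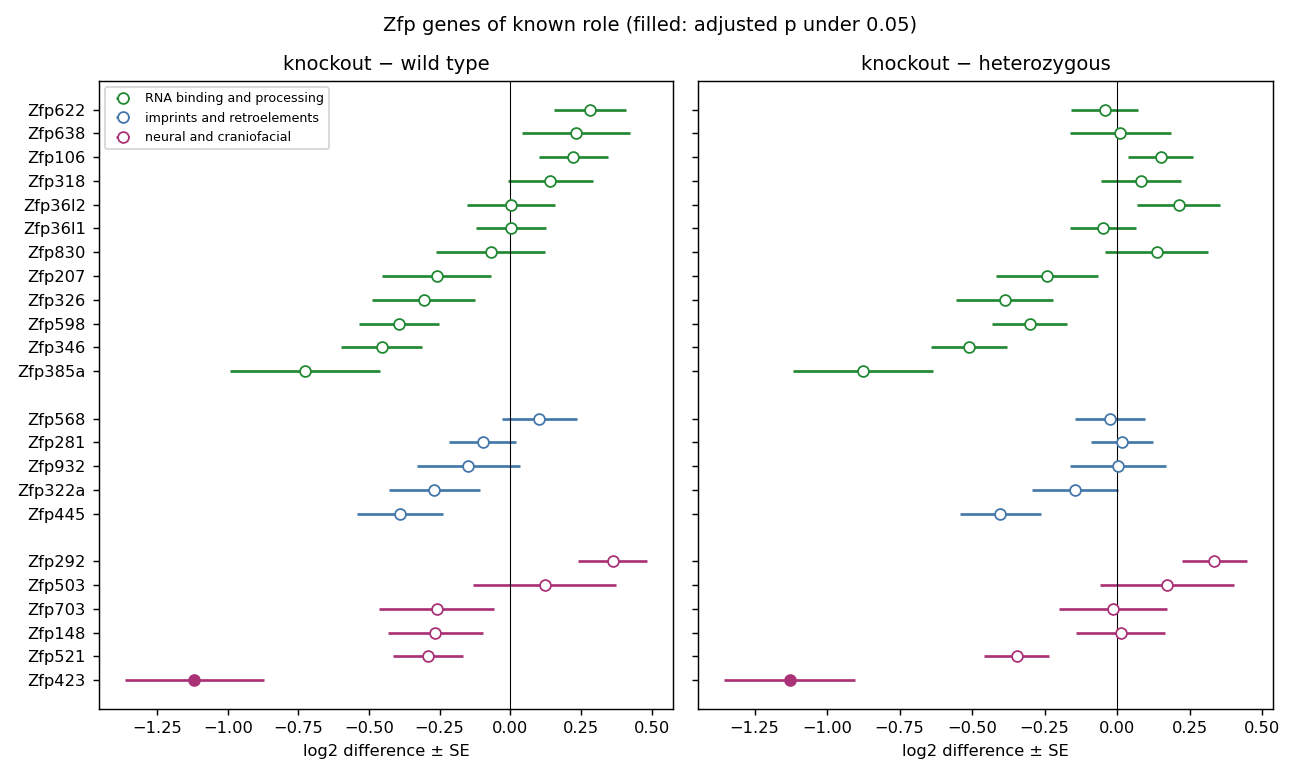
Log2 differences with bars of 1 standard error for the measured Zfp genes of 3 role groups, knockout against wild type on the left and against heterozygous on the right; filled points passed an adjusted p of 0.05. Zfp423 alone is filled, at -1.12 and -1.13, and the RNA-binding genes run from Zfp385a at -0.73 to Zfp622 at 0.28 against wild type.

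The partners through which KRAB zinc finger proteins act were looked at next. Of 22 co-repressor and heterochromatin genes measured, 0 were called between knockout and wild type and 1 fell against heterozygous pools, the histone methyltransferase Ehmt2 (-0.50, limma adjusted p = 0.0146). The called shares of 0% and 4.55% stand beside 3.41% and 5.94% of all genes. Trim28 had means of 2353 ± 202 (SD, n = 2) in wild type, 2243 ± 127 (n = 3) and 2446 ± 74.3 (n = 2) in knockout pools, a difference of 0.06 (adjusted p = 0.811), and Setdb1 differed by -0.19 (0.439). Among 39 other C2H2 factors measured, 2 rose and 2 fell against wild type and 3 rose and 3 fell against heterozygous pools, with a median of 0.05 from wild type. These are 10.3% and 15.4% of the list, beside 3.41% and 5.94% of all genes. The 2 that fell against wild type were Snai1 (-1.23, adjusted p = 0.00628), a repressor active in mesenchyme, and Zic1 (-0.98, 0.0252), a factor of the dorsal neural tube. The 2 that rose were Sp5 (1.46, 0.0108), a Wnt target, and Klf9 (1.33, 0.0416). Klf9 reached the level for testing only through the knockout pools. Its means were 24.9 in wild type, 34.1 in heterozygous and 66.85 in knockout pools. Sp5 lay under the level in wild type alone, with means of 33.85, 43.9 and 99.95 in the same order.

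Position and brightness were set beside the calls. By gene order, 48 of the 112 lie next to another Zfp gene and 64 do not. The first had a median difference of knockout from wild type of -0.01 with 24 below 0 and 3 called, on a median signal of 76.2, and the second -0.12 with 40 below 0 and 1 called, on a median signal of 167. Of all genes tested, 3.41% were called in this comparison, and their share by position was not counted. Counts of 3 and 1 are too small to compare the positions. Neighbours of called genes that were among the 112, looked up after the calls were seen, did not pass. Zfp109 near Zfp61 stood at 0.26 (limma adjusted p = 0.63). Near Zfp746, Zfp282 stood at -0.56 (0.102), Zfp212 at 0.00 and Zfp777 at 0.07. Under a mean signal of 100, 2 of 50 Zfp genes (4%) and 2.65% of all genes were called against wild type, and at 100 or above 2 of 62 (3.23%) and 3.8%. The Zfp genes were dimmer than all genes tested, with a median mean signal of 113 against 155, while the median SD within genotypes was 0.173 against 0.171 on the log2 scale. The brightest by probe set were Zfp207 (832.5), Zfp36l1 (752.9), Zfp622 (720.9), Zfp106 (510.6), Zfp36l2 (447.2), Zfp275 (427.1), Zfp362 (395.9) and Zfp518b (384.5), and of these Zfp362 alone was called. Probe set brightness depends on the probes, so these values give no order of transcript levels.

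More than 1 probe set was present for 53 of the 112 genes, and 34 had more than 1 at or above the level. In 19 of the 34, all such probe sets had the same sign for knockout against wild type. None of the 43 further probe sets of these genes at that level was called in any comparison, and neither were the 11 probe sets annotated to a Zfp gene together with another symbol. The share called among all 13686 probe sets of that fit was not counted. In that fit Zfp316 and Zfp423 did not pass against wild type (limma adjusted p = 0.0563 and 0.0573). Zfp410 did not pass there against heterozygous pools (0.0513). The other Zfp calls passed.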

How the data were processed

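RNA of 7 whole-embryo pools was measured on 430A arrays. The authors deposited linear intensities per probe set, made with MAS5 per the submitters' processing notes; its version and scaling target are not stated there. Such scaling hides a change common to all genes. The table holds 22690 probe sets, 64 of them controls; 20380 had 1 symbol in the platform annotation, 691 several and 1555 none. All 112 Zfp genes matched the GRCm38.p6 gene table, used for names and neighbours.

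Values were transformed to log2(signal + 3.8), where 3.8 is the 10th percentile. This understates differences of dim genes. limma 3.58.1 in R 4.3.3 (lmFit, eBayes with an intensity trend) was fitted once to the 7 arrays on genotype alone (4 residual and 6.01 prior degrees of freedom), tested on simulated data first. Tests are two-sided, with Benjamini-Hochberg adjustment across 8075 genes. Groups of 2 and 3 pools limit the precision.

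The members and lists were chosen with earlier results of these data known, and the lists come from textbook knowledge. Named were genes past the threshold, the 5 largest differences each way with separate groups, the 8 brightest, the role groups, genes at the level's edge and up to 4 called genes per other list. Alternatives covered pseudocount, filter, normalization, trend, weights, probe set choice, replicate block and each pool left out.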

Additional observations from a re-analysis of the deposited data

How the results depend on the processing

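For the genes past the threshold or with the largest separate differences, 33 differences were recomputed, and none changed sign under the alternatives tried. Genes named only for their role, brightness or list were not recomputed. Further probe sets of Zfp410, Zfp444, Zfp64, Zfp148, Zfp276, Zfp574, Zfp292, Zfp787 and Zfp991 gave the opposite sign for a recomputed difference. Against 4 Zfp genes called between knockout and wild type, 2 were called with no brightness filter, 2 with no intensity trend, 7 with array weights, 7 at a threshold of 0.1 and 0 to 5 with a pool left out. Against 5 called between knockout and heterozygous pools, 3 were called at a mean signal of at least 100, 3 with no trend, 9 with array weights, 12 at a threshold of 0.1 and 0 to 8 with a pool left out. The F test's 5 became 0 with no filter, 3 at a mean signal of at least 100, 2 with no trend, 8 at a threshold of 0.1 and 0 to 6 with a pool left out. Heterozygous against wild type stayed at 0 under every alternative tried. All-gene counts moved too: 275 genes called against wild type became 53 without wild-type pool 2, 78 without knockout pool 1, 37 without knockout pool 2, 150 with no trend and 517 with array weights. Against heterozygous pools 480 genes called (5.94%) became 242 (3%) with no trend, 672 (8.32%) with array weights and 547 (6.77%) without heterozygous pool 2. At a mean signal of at least 100, 396 of 5316 genes (7.45%) were called there. Zfp61 (68.5) and Zfp746 (87.6) lay under that mean signal and were not tested. Zfp362, Zfp410 and Zfp423 stayed called against heterozygous pools with that filter. The cause of the other shifts was not tested. Where 1 pool of a genotype was left, it was taken to vary like the other groups.

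The median difference of the Zfp genes from wild type (-0.0849 in knockout) was -0.0511 at a mean signal of at least 100, -0.0621 with quantile normalization, -0.106 averaged over probe sets and -0.0953 to -0.0604 with a pool left out. In heterozygous pools it went from 0.0121 to -0.0150 averaged over probe sets, and lay between 0.00231 and 0.0225 with a pool left out. From heterozygous pools (-0.0589) it was -0.0815 averaged over probe sets and -0.0955 to -0.0476 with a pool left out. The members' median varied by an SD of 0.0185 between pools of a genotype.

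Deviations from the genotype means correlated at -0.311 to 0.00148 between same-numbered pools of different genotypes. Between differently numbered pools they correlated at -0.0378 to 0.311. In a genotype of 2 pools these deviations mirror each other, so the values cannot show whether replicate numbers pair the pools. With the replicate number as a block, 0 Zfp genes were called in any comparison or by the F test, and 67 of all genes against wild type instead of 275.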
